A study of Mus musculus with 12 samples.

Results

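Amino acids cross the plasma membrane through families of solute carriers, and 10 of these transporter genes are described here in fibroblasts of the infarcted mouse heart. The genes were taken by symbol from the deposited table as carriers of cystine, of neutral and of cationic amino acids. All 10 had a row, out of 18771 genes in the table, and all 10 passed the filter on low counts that left 13600 genes for testing. The 6 Pfas CKO libraries came from mice of genotype PDGFRa CreER/+;Pfas fl/fl, in which a tamoxifen-inducible Cre driven by Pdgfra control sequences removes Pfas from cells that express that gene. Pfas encodes a glutamine-consuming enzyme of purine synthesis. The 6 control libraries carried the same Cre with a single floxed allele, PDGFRa CreER/+;Pfas fl/+. All mice had a permanent ligation of the left anterior descending artery 3 days earlier. Tamoxifen at 7 and 3 days before infarction and at 1 day after it is recorded for Pfas CKO mice only, and an effect of the drug cannot be told apart from the genotype.

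Several of these carriers work as pairs of chains. Slc3a2 encodes CD98hc, the heavy chain that brings light chains such as those from Slc7a11, Slc7a5 and Slc7a7 to the cell surface. The Slc7a11 dimer imports cystine, the oxidised form of cysteine, in exchange for glutamate and so feeds glutathione synthesis. The Slc7a5 dimer takes up leucine and other large neutral amino acids, and Slc1a5, Slc38a1 and Slc38a2 move glutamine and smaller neutral amino acids with sodium. Slc7a1 and Slc7a2 import arginine and lysine, and arginine is the shared substrate of nitric oxide synthases and arginases.

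The libraries held 20320133 to 20950074 estimated counts each. Control 1 to 3, control 4 to 6 and Pfas CKO 1, 3, 5 and 6 formed near-identical sets, in which the mean chi-square per gene between libraries was 1.69 to 5.28 (1 is sampling noise), while Pfas CKO 2 and 4 stood apart, and libraries of different sets within a group differed by 17.5 to 40.4. The labels do not tie libraries to separate mice, so p-values describe the spread between libraries, which may be technical. Pfas itself ran from 8.01 to 17.4 CPM (counts scaled by TMM to a common library size) in Pfas CKO libraries, highest in Pfas CKO 2 and 4, against 22.4 to 24.9 CPM in control (log2 fold change -1.05 ± 0.156, SE; edgeR quasi-likelihood adjusted p = 2.26e-05). The median log2 fold change of all genes was -0.02 with TMM scaling and -0.26 with plain library totals, and fold changes are given on the TMM scale unless another is named. Fibroblast markers were plentiful, with 17 genes summing to 26451 to 28722 CPM in Pfas CKO and 29323 to 32610 CPM in control libraries. Of the 17, 11 were called higher and 5 lower in Pfas CKO, beside 33.4% and 35.2% of all genes tested. Macrophage markers were plentiful too, with 20 genes summing to 7742 to 9683 CPM in Pfas CKO and 7315 to 8038 CPM in control libraries.

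The 10 carriers split by direction. Slc7a11, Slc7a2, Slc38a1, Slc38a2, Slc3a2 and Slc7a1 were higher in Pfas CKO, with Slc7a1 lower in place of higher under library totals or TPM, and Slc1a4, Slc1a5, Slc7a7 and Slc7a5 were lower. Calls at an edgeR adjusted p under 0.05 were also common elsewhere: 68.6% of all genes tested were called, 33.4% as higher and 35.2% as lower, so being called sets no carrier apart. With library totals alone, 2775 genes were called higher and 7202 lower, and 4 carriers were higher and 5 lower. Slc7a11 and Slc7a2 rose at least 2-fold with TMM, as did 6.88% of genes tested, and none of the 10 carriers fell by that much, as did 6.26% of genes tested. The median absolute log2 difference was 0.59 over the 10 genes and 0.38 over all genes tested. In 9 of the 10 the CPM ranges of the groups did not overlap, as for 47.1% of all genes tested, and Slc7a1 was the exception. Between the control sets, where the genotype is the same, 7 of the 10 were also called, with 3 higher and 4 lower in control 4 to 6 (of 13727 genes tested there, 45.5% were called, 23.5% higher and 22.0% lower), and the median absolute difference was 0.15.

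**Figure D1:**
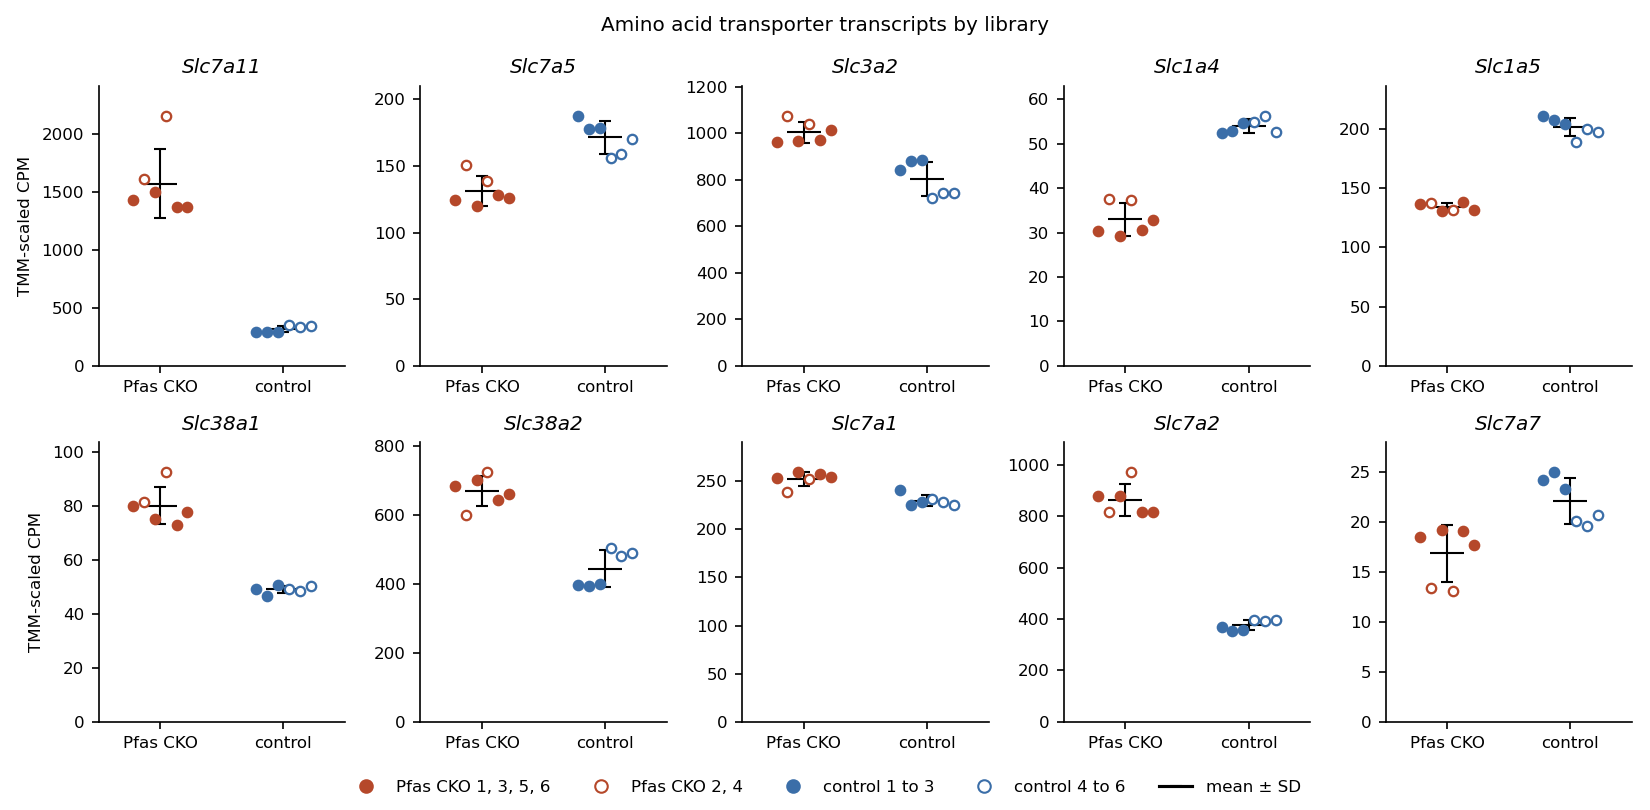
TMM-scaled CPM of the 10 carriers in each library (vertical axes start at 0), with Pfas CKO on the left and control on the right, and the mean ± SD of 6 libraries in black. Open circles mark Pfas CKO 2 and 4 and control 4 to 6. Slc7a11 spanned 1367 to 2152 CPM in Pfas CKO libraries and 288 to 349 CPM in control libraries, and the Slc7a1 ranges overlapped.

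The transcript of the cystine carrier showed the largest change of the 10. Slc7a11 (gene ID 26570; chromosome 3, 49892526 to 50443614 in GRCm38, minus strand; all 10 genes are protein-coding) encodes xCT, the light chain that carries cystine and sets the pace of cysteine supply for glutathione. Its level was lowest at 1367, median 1461 and highest at 2152 CPM in Pfas CKO libraries, against 288, 315 and 349 CPM in control libraries. Every Pfas CKO library was far above every control library, and Pfas CKO 4 was well above the other 5, which reached 1605 CPM. The mean was 1569 ± 299 CPM in Pfas CKO and 317 ± 28.1 CPM in control (SD, n = 6 each), 4.95-fold higher, with a log2 fold change of 2.31 ± 0.107 (SE, edgeR adjusted p = 4.87e-11). Without Pfas CKO 2 and 4 the log2 fold change was 2.15. The control sets differed as well, with 337 to 349 CPM in control 4 to 6 and 288 to 294 CPM in control 1 to 3, a log2 difference of 0.22.

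The stretch before the start of Slc7a11 is shown because the gene changed most and because this stretch carries short elements that stress-responsive factors are known to bind. The C/EBP-ATF response element, bound by ATF4, was searched as TGATGNAAN, the antioxidant response element, bound by NRF2, as TGACNNNGC and TGAGNNNGC, the AP-1 element as TGANTCA and the E-box of MYC and MAX as CACGTG, all on both strands of the 250 bases before the start. Capitals mark every match in RefSeq's GRCm38.p6 sequence at chr3:50443614-50443863, minus strand, written 5′ to 3′.
Slc7a11: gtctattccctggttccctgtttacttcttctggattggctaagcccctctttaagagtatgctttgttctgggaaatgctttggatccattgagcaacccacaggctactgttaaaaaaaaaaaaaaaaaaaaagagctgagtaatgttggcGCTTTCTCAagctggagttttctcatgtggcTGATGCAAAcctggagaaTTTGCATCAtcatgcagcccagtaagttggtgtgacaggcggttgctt
The matches were TGATGCAAA at 66 to 58 bases before the start, the same element on the opposite strand, TTTGCATCA, at 48 to 40 bases before it, and GCTTTCTCA, an antioxidant element on the opposite strand, at 97 to 89 bases before it. Of 32851 promoter windows of the same length, 3.44% held the C/EBP-ATF element at least once and 13 windows, or 0.0396%, held it more than once. TGAGNNNGC was found in 14.4% of windows, TGACNNNGC in 10.2%, TGANTCA in 6.75% and CACGTG in 6.02%. The table had windows for 6 of the 10 genes (11 windows, since Slc7a7 and Slc7a1 have more than 1 start), and Slc7a5, Slc1a5, Slc38a1 and Slc7a2 had none. Among the others, Slc7a7 held the C/EBP-ATF element in 2 of its 5 windows and TGAGNNNGC in 2, Slc38a2 and Slc7a1 held TGACNNNGC, Slc7a1 held TGANTCA, Slc1a4 held TGAGNNNGC, and the window of Slc3a2 held no match to these letters. That Slc3a2 window, at 8713898 to 8714147 on chromosome 19, lies inside the gene's span of 8706882 to 8723369 (minus strand). The bases before the start of that span were not searched. A match is a run of letters, and binding was not measured.

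The heavy chain moved little. Slc3a2 (gene ID 17254; chromosome 19, 8706882 to 8723369, minus strand) was lowest at 962, median 992 and highest at 1075 CPM in Pfas CKO, against 721, 794 and 883 CPM in control. The groups did not overlap, but control 1 to 3, at 843 to 883 CPM, lay closer to Pfas CKO than control 4 to 6, at 721 to 745 CPM. The log2 fold change was 0.32 ± 0.0605 (SE; edgeR adjusted p = 0.000209), and the control sets differed by -0.25. With library totals alone the log2 fold change was 0.09 and did not pass (adjusted p = 0.217; 4.75e-07 to 0.217 over 26 alternative settings), and on log2(TPM + 1) it was 0.13 (limma adjusted p = 0.0674).

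The light chain for large neutral amino acids among the chosen carriers went the other way. Slc7a5 (gene ID 20539; chromosome 8, 121881150 to 121907694, minus strand) encodes LAT1, which brings in leucine, a signal of amino acid supply to mTORC1. Libraries of Pfas CKO had 120.2 CPM as lowest, 127 as median and 151 as highest, against 156, 174 and 188 CPM in control. The groups did not overlap, and Pfas CKO 2 came near control 4. The log2 fold change was -0.38 ± 0.0641 (SE; edgeR adjusted p = 7.19e-05). With near-identical libraries summed into 3 Pfas CKO and 2 control samples it was -0.31 and did not pass (adjusted p = 0.0805; 1.77e-07 to 0.0805 over 26 settings).

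The remaining light chain among the chosen carriers fell too. Slc7a7 (gene ID 20540; chromosome 14, 54369442 to 54417780, minus strand) encodes y+LAT1, which exports cationic amino acids in exchange for neutral ones. It was lowest at 13.1, median 18.1 and highest at 19.2 CPM in Pfas CKO, against 19.5, 21.99 and 24.95 CPM in control. Pfas CKO 2 and 4 were the lowest libraries, at 13.4 and 13.1 CPM, and the other 4 lay just under control 4 to 6. The log2 fold change was -0.39 ± 0.106 (SE; edgeR adjusted p = 0.00377), against -0.28 between the control sets. Against control 4 to 6 alone it was -0.26 and did not pass (adjusted p = 0.0882; 8.51e-05 to 0.0882 over 26 settings). Exons of Slc7a7 share 232 bases with Oxa1l on the opposite strand, which averaged 27.3 CPM in Pfas CKO and 37.7 CPM in control, and without a stated strand setting the reads of that stretch cannot be told apart.

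Within a library, the balance of light chains against the shared heavy chain changed for all 3 light chains among the chosen carriers. The ratio of Slc7a11 to Slc3a2, in TPM (a share of transcripts corrected for length), was 0.397 ± 0.0694 in Pfas CKO and 0.108 ± 0.0182 in control (SD, n = 6 each). The ratio of Slc7a5 to Slc3a2 was 0.0880 ± 0.00428 in Pfas CKO and 0.154 ± 0.00665 in control. The ratio of Slc7a7 to Slc3a2 was 0.0211 ± 0.00451 in Pfas CKO and 0.0346 ± 0.000902 in control. For each of the 3 ratios the groups did not overlap, and a two-sided exact permutation of the log2 ratios gave p = 0.00216, the smallest its 924 arrangements allow, or 0.00325 adjusted over the 6 pairs tested. That test takes libraries as independent, and with near-identical ones averaged (3 Pfas CKO against 2 control samples) the exact permutation test cannot go below p = 0.2. The averaged log2 differences were then 1.97, -0.76 and -0.95 in the same order. These ratios do not depend on scaling between libraries.

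**Figure D2:**
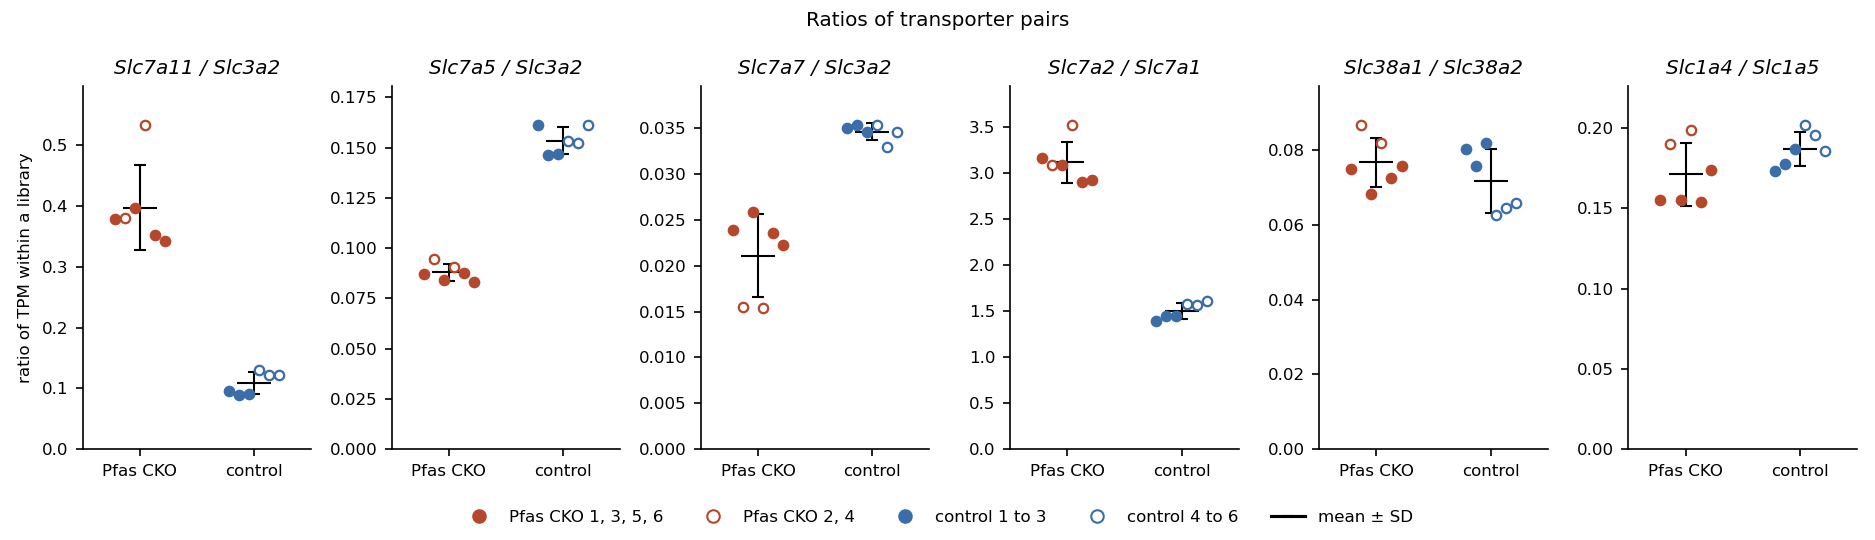
Ratio of TPM of 2 carriers within each library, with Pfas CKO on the left and control on the right of each panel and the mean ± SD of 6 libraries in black. The light chain ratios Slc7a11 to Slc3a2, Slc7a5 to Slc3a2 and Slc7a7 to Slc3a2 and the ratio Slc7a2 to Slc7a1 separate the groups, and the last 2 panels overlap.

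Sodium-coupled exchangers of small neutral amino acids fell. Slc1a5 (gene ID 20514; chromosome 7, 16781340 to 16798274, plus strand) encodes ASCT2, a glutamine and small neutral amino acid exchanger. Pfas CKO libraries held 130.5 CPM at the lowest, 134 at the median and 138 at the highest, against 189.6, 202 and 211 CPM in control. All 6 Pfas CKO libraries lay close together and well under control, and the log2 fold change was -0.59 ± 0.0420 (SE; edgeR adjusted p = 8.12e-09). Slc1a4 (gene ID 55963; chromosome 11, 20302180 to 20332713, minus strand) encodes ASCT1, a close relative that carries serine, alanine and cysteine. It had the largest fall of the 10, with 29.2, 31.7 and 37.6 CPM as lowest, median and highest in Pfas CKO and 52.3, 53.8 and 56.3 CPM in control. The highest Pfas CKO values were those of Pfas CKO 2 and 4, at 37.6 and 37.3 CPM, and without them the log2 fold change was -0.82 in place of -0.71 ± 0.0656 (SE; edgeR adjusted p = 1.49e-07). The control sets did not pass the test for Slc1a4 (log2 difference 0.02, adjusted p = 0.753). The ratio of Slc1a4 to Slc1a5 was 0.171 ± 0.0197 in Pfas CKO and 0.187 ± 0.0107 in control and did not pass (exact permutation p = 0.119, adjusted 0.143). Without Pfas CKO 2 and 4 it did, with a log2 difference of -0.23 (exact permutation, adjusted p = 0.0229). The Pfas CKO libraries left then form a single near-identical set, which that test takes as independent libraries.

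Net importers of glutamine and small neutral amino acids moved opposite to the exchangers. Slc38a2 (gene ID 67760; chromosome 15, 96687392 to 96699730, minus strand) encodes SNAT2, a carrier known to be induced when amino acids run short. It was lowest at 600.4, median 674 and highest at 724 CPM in Pfas CKO, against 394, 441 and 505 CPM in control. Control 4 to 6, at 482 to 505 CPM, lay above control 1 to 3, at 394 to 399 CPM, a log2 difference of 0.30 beside 0.59 ± 0.0747 (SE; edgeR adjusted p = 4.41e-06) between the groups. Against control 4 to 6 alone the fold change was 0.44 on the log2 scale and against control 1 to 3 alone it was 0.76. Slc38a1 (gene ID 105727; chromosome 15, 96571418 to 96642913, minus strand) encodes SNAT1. The lowest, median and highest values were 73.2, 79.0 and 92.7 CPM in Pfas CKO, against 46.8, 49.3 and 50.7 CPM in control. The groups lay far apart relative to their spread, the control sets were alike (log2 difference -0.0046 ± 0.0441, SE), and the log2 fold change was 0.71 ± 0.0558 (SE; edgeR adjusted p = 2.60e-08). The ratio of Slc38a1 to Slc38a2 was 0.0767 ± 0.00661 in Pfas CKO and 0.0718 ± 0.00854 in control, with a log2 difference of 0.10 that did not pass (exact permutation p = 0.277). It was 0.25 against control 4 to 6 alone (exact permutation, adjusted p = 0.0286) and -0.05 against control 1 to 3 alone. Each of these control sets is near-identical, and the test takes its libraries as independent.

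Of the cationic carriers, Slc7a2 rose and Slc7a1 hardly moved. Slc7a2 (gene ID 11988; chromosome 8, 40862396 to 40922308, plus strand) encodes CAT2, known in macrophages as the arginine supplier of inducible nitric oxide synthase. It was lowest at 815, median 848 and highest at 971 CPM in Pfas CKO, against 354, 379 and 397 CPM in control. The groups lay far apart, with Pfas CKO 4 highest, and the log2 fold change was 1.19 ± 0.0552 (SE; 2.29-fold higher, edgeR adjusted p = 4.94e-11). Its exons share 635 bases with Gm26584, a non-coding RNA on the opposite strand that has no row in the table. Slc7a1 (gene ID 11987; chromosome 5, 148327410 to 148399904, minus strand) encodes CAT1, the constitutive arginine and lysine importer. It was lowest at 239, median 253 and highest at 259 CPM in Pfas CKO, against 225, 228 and 241 CPM in control. The ranges overlapped through Pfas CKO 2 and control 1. Its log2 fold change was 0.14 ± 0.0396 (SE; edgeR adjusted p = 0.00657) with TMM, -0.10 with library totals alone (adjusted p = 0.0394), -0.14 on log2(TPM + 1) (limma adjusted p = 0.00936) and 0.12 with near-identical libraries summed (adjusted p = 0.433), so no direction is given for this gene. The ratio of Slc7a2 to Slc7a1 was 3.11 ± 0.225 in Pfas CKO and 1.504 ± 0.0879 in control, with no overlap (log2 difference 1.05, exact two-sided permutation p = 0.00216, adjusted 0.00325). That test takes libraries as independent. With near-identical ones averaged the log2 difference was 1.09, and the exact permutation test cannot go below p = 0.2.

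**Figure D3:**
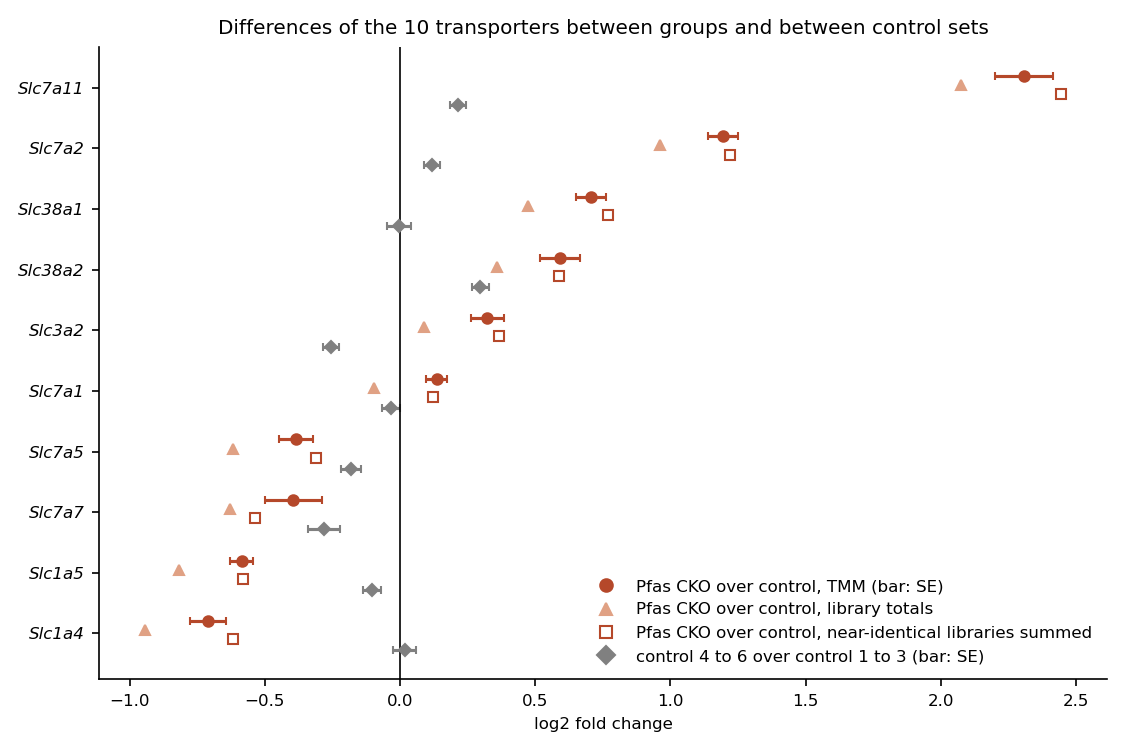
Log2 fold changes of the 10 carriers, with Pfas CKO over control by TMM (circles with SE), by library totals (triangles) and with near-identical libraries summed (squares), and control 4 to 6 over control 1 to 3 (grey diamonds with SE). Library totals shift every gene to the left by about the same amount, which puts Slc7a1 at -0.10, and the control sets differed by up to 0.30, for Slc38a2.

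Set side by side per length, the heavy chain was the most abundant carrier in both groups. In TPM the order in Pfas CKO libraries was Slc3a2 (835 ± 23.0), Slc7a11 (332 ± 61.8), Slc38a2 (283 ± 22.02), Slc7a2 (218 ± 16.9), Slc1a5 (96.4 ± 2.42), Slc7a5 (73.6 ± 5.19), Slc7a1 (69.9 ± 2.82), Slc38a1 (21.6 ± 1.78), Slc7a7 (17.5 ± 3.38) and Slc1a4 (16.5 ± 1.61), each mean ± SD with n = 6. There the ranges of Slc7a11 and Slc38a2, of Slc7a5 and Slc7a1, of Slc38a1 and Slc7a7, and of Slc7a7 and Slc1a4 overlapped, and the other neighbours did not. In control libraries the order was Slc3a2 (766 ± 78.7), Slc38a2 (229 ± 22.2), Slc1a5 (177 ± 10.5), Slc7a5 (117 ± 11.1), Slc7a2 (116 ± 4.06), Slc7a11 (81.9 ± 5.54), Slc7a1 (77.3 ± 3.57), Slc1a4 (32.9 ± 0.928), Slc7a7 (26.5 ± 3.04) and Slc38a1 (16.3 ± 0.714). The overlapping neighbours there were Slc7a5 with Slc7a2 and Slc7a11 with Slc7a1. Slc7a11 thus stood second in Pfas CKO and sixth in control, and held 16.9% of the summed TPM of the 10 genes in Pfas CKO and 4.99% in control. The summed TPM was 1963 ± 94.7 in Pfas CKO and 1640 ± 75.5 in control, and without Slc7a11 it was 1631 ± 35.0 in Pfas CKO and 1558 ± 80.4 in control, ranges that overlapped. TPM is scaled to a fixed total in each library, so a sum of it is a share of all transcripts.

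**Figure D4:**
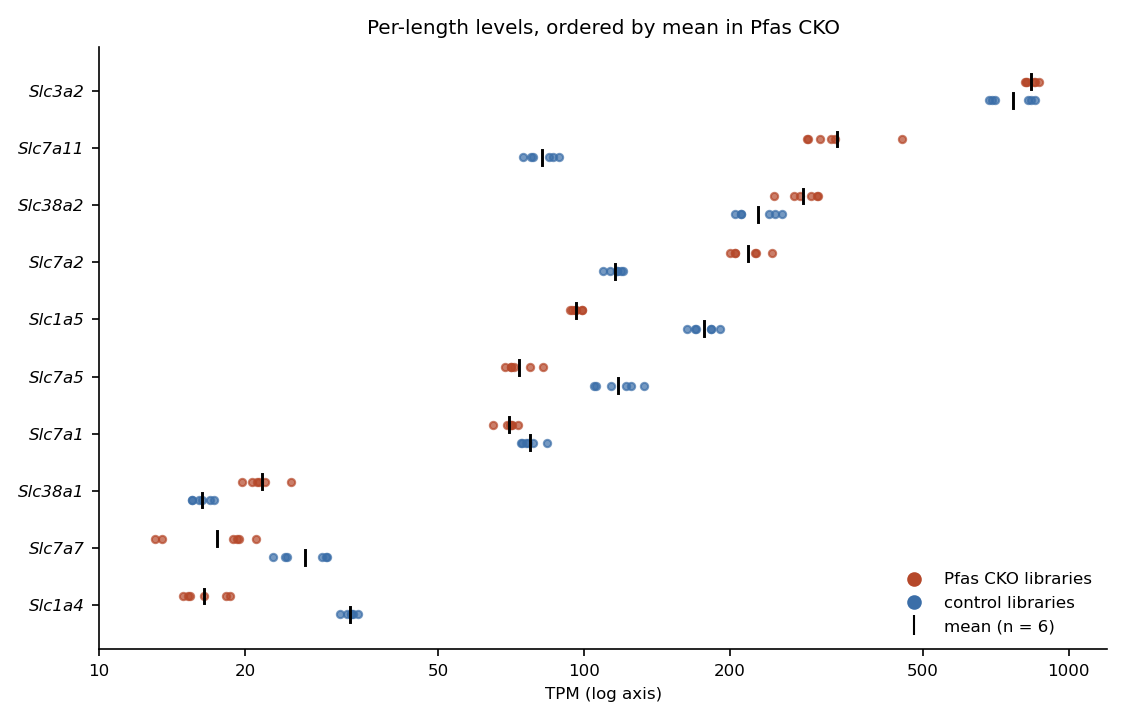
TPM of each carrier (log axis) in every library, with Pfas CKO above control for each gene, ordered by the mean in Pfas CKO, and a black bar at the mean. Slc3a2 is highest in both groups, and Slc7a11 lies at 289 to 454 TPM in Pfas CKO and at 75.0 to 88.9 TPM in control.

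Of 37 other amino acid carriers listed, 25 were tested, of which 11 fell, 6 rose and 8 were not called, beside 35.2% lower and 33.4% higher over all genes tested. With library totals 15 fell and 4 rose, with near-identical libraries summed 7 fell and 4 rose, and against control 4 to 6 alone 7 fell. Their median log2 fold change was -0.13, beside -0.02 over all genes tested. Slc15a3, a lysosomal carrier of histidine and short peptides, rose to 667 ± 44.0 CPM in Pfas CKO, against 323 ± 46.2 CPM in control. Slc16a10, a carrier of aromatic amino acids, rose to 185 ± 22.4 CPM, against 122 ± 3.20 CPM. Slc38a9, the lysosomal arginine sensor of mTORC1, fell to 8.86 ± 0.512 CPM in Pfas CKO, against 17.9 ± 0.617 CPM in control, and Slc38a6, a relative of Slc38a1, fell to 65.6 ± 1.91 CPM, against 99.6 ± 3.47 CPM (n = 6 each). Their edgeR adjusted p-values were 3.15e-08, 2.15e-06, 6.02e-10 and 6.08e-09.

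Among genes that use cystine for glutathione and their NRF2-linked neighbours, 15 of 22 tested rose, Slc7a11 included, 2 fell and 5 were not called (15 rose and 6 fell with library totals). Over all genes tested 33.4% were higher and 35.2% lower. The median log2 fold change was 1.05 in this list and -0.02 over all genes tested. Txnrd1, thioredoxin reductase, rose to 1933 ± 96.9 CPM in Pfas CKO, against 762 ± 15.3 CPM in control, and Nqo1, a quinone reductase, rose to 36.1 ± 1.45 CPM, against 9.13 ± 0.994 CPM (edgeR adjusted p = 1.02e-12 and 2.17e-12). The subunits of glutamate-cysteine ligase, Gclc and Gclm, singled out here after their values were seen, rose by 1.65 and 1.57 on the log2 scale. Cth, which makes cysteine from cystathionine, fell to 2.66 ± 1.21 CPM in Pfas CKO, against 7.84 ± 1.67 CPM in control, and Chac1, which degrades glutathione, fell to 29.97 ± 4.01 CPM, against 38.6 ± 2.18 CPM (edgeR adjusted p = 2.34e-05 and 0.000687). The Chac1 ranges overlapped, and with near-identical libraries summed its log2 fold change was -0.26 and did not pass (edgeR adjusted p = 0.170; 3.00e-06 to 0.170 over 26 settings). Between the control sets 13 genes of this list were higher and 4 lower in control 4 to 6, with a median log2 difference of 0.19. Over all genes tested there 23.5% were higher and 22.0% lower.

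Genes of the amino acid response, which ATF4 is known to drive, did not move one way. Of 28 tested, 12 rose and 9 fell, or 10 and 15 with library totals alone and 9 and 5 with near-identical libraries summed. Over all 13600 genes tested 33.4% were higher and 35.2% lower, or 2775 and 7202 genes with library totals. The median of the list was 0.02, or -0.21 with library totals, beside -0.02 and -0.26 over all genes tested. Atf3 rose 2.57-fold and Ppp1r15a, which restores translation after stress, 2.22-fold (edgeR adjusted p = 1.84e-12 and 2.71e-10). Ddit3 fell 1.67-fold and Vldlr 1.95-fold (adjusted p = 2.54e-09 and 5.95e-07). Atf4 itself, also singled out after its values were seen, stood at 517 ± 24.2 CPM in Pfas CKO, against 361 ± 28.8 CPM in control, a log2 fold change of 0.52 (adjusted p = 9.64e-07). Asns and Trib3, targets of ATF4 singled out after their values were seen, had log2 fold changes of -0.11 and -0.02 and did not pass (adjusted p = 0.148 and 0.776). With library totals, which shift all genes by -0.23, they were -0.34 and -0.25 and passed (edgeR adjusted p = 0.000124 and 0.00131). Asns also passed as lower without Pfas CKO 2 and 4 (-0.18, edgeR adjusted p = 0.0114) and against control 4 to 6 alone (-0.22, adjusted p = 0.00895). Against control 1 to 3 alone Asns was at 0.0081 and did not pass (edgeR adjusted p = 0.917).

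Genes listed around the use of the transported amino acids were mixed, apart from the branched-chain, serine and tryptophan list. The lists also hold genes that make these amino acids, act on related compounds or regulate enzymes. Over all 13600 genes tested 33.4% were called higher and 35.2% lower, with a median log2 fold change of -0.02. With library totals 2775 genes were called higher and 7202 lower, with a median of -0.26. The 18 genes of the glutamine list include enzymes that act on glutamate or make glutamine. Of the 18, 7 fell and 5 rose, or 13 and 3 with library totals and 5 and 3 with near-identical libraries summed (median -0.11). Pfas is among those that fell. Gfpt1 and Gfpt2, which spend glutamine on hexosamines, rose 1.81-fold and 2.27-fold, while Ctps2, a CTP synthase, fell 1.56-fold and Glud1, glutamate dehydrogenase, fell 1.32-fold. Of 15 tested genes of the arginine list, which also holds polyamine genes and genes that make arginine, 6 rose and 6 fell (median 0.09, or -0.14 with library totals). Nos2, inducible nitric oxide synthase, rose to 117 ± 54.4 CPM in Pfas CKO, against 9.09 ± 0.798 CPM in control, with Pfas CKO libraries from 78.8 to 191.5 CPM, and Padi4, which turns arginine of proteins into citrulline, rose 3.28-fold. Its relative Padi2 fell 4.65-fold, and Azin1, which sustains polyamine synthesis, fell 2.03-fold. Of 13 tested genes of the branched-chain, serine and tryptophan list, some of which make serine, 11 fell and 1 rose (median -0.41). The gene that rose was Il4i1, a secreted amino acid oxidase of leukocytes, at 63.4 ± 7.62 CPM in Pfas CKO, against 8.04 ± 0.945 CPM in control. Bcat1, the cytosolic branched-chain aminotransferase, fell to 79.0 ± 12.9 CPM in Pfas CKO, against 128 ± 3.06 CPM in control, and Bckdk, a kinase of branched-chain keto acid dehydrogenase, fell 1.42-fold. With near-identical libraries summed, 4 of the 11 falls in that list were called.

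Of 37 tested genes of amino acid sensing by mTORC1, 17 fell and 9 rose (median -0.14), beside 35.2% lower and 33.4% higher over all genes tested. With library totals 24 fell and 4 rose, and with near-identical libraries summed 10 fell and 6 rose. Bmt2, a sensor of S-adenosylmethionine in human cells, rose 3.05-fold, and Sesn3, a sestrin, 2.11-fold, while Wdr24, of the GATOR2 complex, fell 1.69-fold. Of 16 regulators of transporter level or surface display, 10 rose and 3 fell (median 0.24, or 0.01 with library totals, where 5 were higher and 6 lower; 5 and 2 with near-identical libraries summed). Nfe2l2, which encodes NRF2, rose to 573 ± 32.9 CPM in Pfas CKO, against 227 ± 20.5 CPM in control, and Trp53, a repressor of Slc7a11 in other cells, rose to 150.5 ± 5.67 CPM, against 97.3 ± 4.18 CPM (edgeR adjusted p = 6.63e-11 and 7.97e-09). Txnip, an arrestin-like protein that curbs nutrient uptake, fell 1.39-fold.

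**Figure D5:**
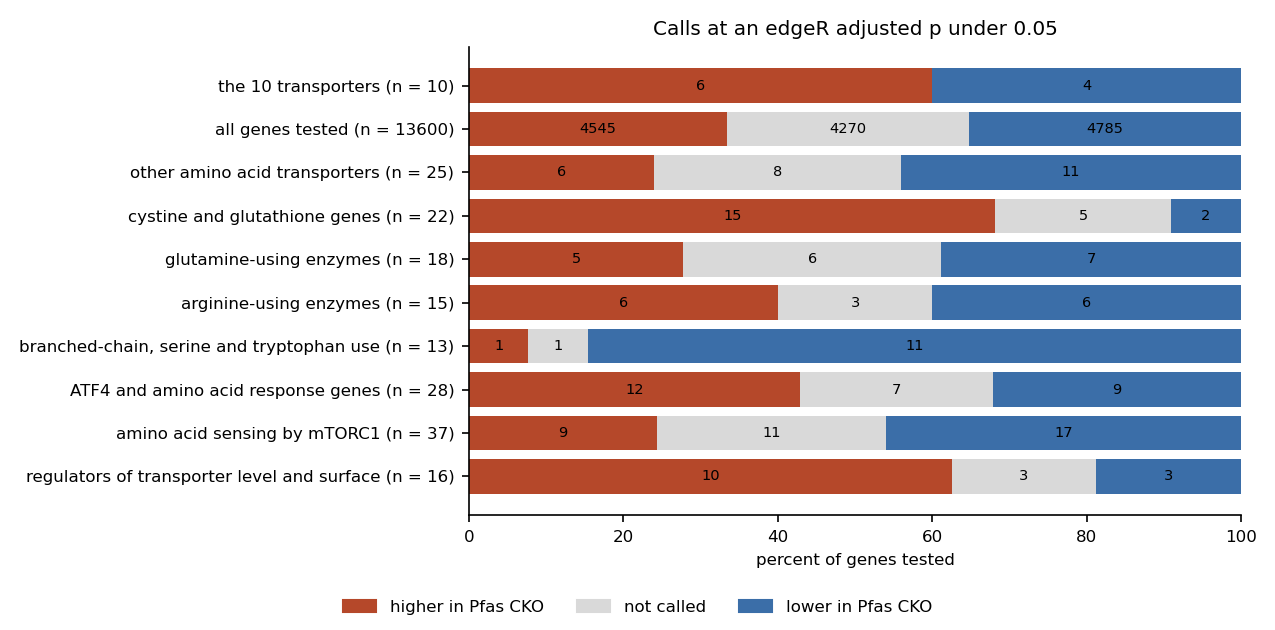
Share of tested genes called higher (red), not called (grey) or called lower (blue) in Pfas CKO libraries (edgeR adjusted p below 0.05), with counts in the bars, for the 10 carriers, all genes tested and the 8 related gene lists. The cystine and glutathione list has 15 of 22 genes higher, and the branched-chain, serine and tryptophan list has 11 of 13 lower. List labels name a theme, and some genes in the lists make an amino acid or act on related compounds.

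Transcripts of other cell types moved beside these results, and in bulk RNA fewer cells of a type and less RNA per cell cannot be told apart. Over all genes tested 33.4% were called higher and 35.2% lower. Of 20 macrophage markers, 7 rose and 8 fell, or 6 and 12 with library totals. Of 12 endothelial markers, 10 rose and 2 fell, and their sum was 1137 to 1432 CPM in Pfas CKO and 1043 to 1087 CPM in control libraries. With library totals 8 of them rose and 2 fell, and with near-identical libraries summed 7 rose and 2 fell. Of 12 tested cardiomyocyte markers, 11 rose, with sums of 55.7 to 68.7 CPM in Pfas CKO and 24.3 to 26.1 CPM in control. Of 8 tested erythrocyte and platelet markers, 7 rose, with sums of 424 to 539 CPM in Pfas CKO and 114 to 140 CPM in control. Of 7 tested neutrophil markers, 4 rose and 2 fell (median log2 fold change 1.05), with sums of 139 to 237 CPM in Pfas CKO and 235 to 258 CPM in control, and Retnlg, Ly6g, Ngp and Camp were too low to test. Of 8 pericyte and smooth muscle markers, 5 rose and 1 fell, with sums of 377 to 452 CPM in Pfas CKO and 309 to 350 CPM in control. With library totals 4 of them rose and 2 fell, and with near-identical libraries summed 2 rose and 1 fell. Of 5 tested lymphocyte markers, 2 rose and 1 fell, and of 5 tested epicardial and mesothelial markers, 2 rose and 2 fell. Both lists summed to under 10 CPM in each library. No marker was at 0 in every library, and the part of any cell type in the carriers' changes was not tested.

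Profiles most like the largest rise and the largest fall were sought among the 8818 other genes whose mean reached 10 CPM. Likeness was the root mean square difference between log2 CPM profiles over the 12 libraries, each centred on its mean in control. For Slc7a11 the closest were Nfkbia (0.102), Ets2 (0.125) and Mapkapk2 (0.127). Nfkbia, an inhibitor of NF-kB, stood at 1002 ± 89.8 CPM in Pfas CKO, against 213 ± 13.4 CPM in control (SD, n = 6 each). For Slc1a4 the closest were Tbccd1 (0.0660), Parp2 (0.0694) and Bcat1 (0.0710). Bcat1 is also in the branched-chain list above.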

How the data were processed

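Oligo(dT)-enriched RNA of left ventricular cardiac fibroblasts was sequenced in 12 libraries from 1 µg of RNA each, per the labels' protocols. The deposited table gives estimated counts (not normalized), TPM and FPKM per library, per the file headers; a further deposited FPKM column, the authors' mean of control 1 to 3, was not used. The submitters' processing notes name Bowtie2, RSEM and DESeq2 for 9 libraries, no tool for control 1 to 3, and GRCm38 for all. The sources used here give no annotation and no strand setting. Whole values (within 0.005) made up 60.9% to 61.5% of non-zero counts in control 1 to 3 and 17.3% to 26.7% elsewhere. Genes with blank values (1067) were left out.

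Rounded counts went into edgeR 4.0.16 under R 4.3.3 (TMM scaling, filterByExpr, glmQLFTest, Benjamini-Hochberg over 13600 genes, threshold 0.05), and the script was tested on simulated data. The SE is the log2 fold change over the root of F. Ratios were taken from TPM and, as an alternative, FPKM. Positions are from GENCODE M21 and promoters from RefSeq (GRCm38.p6). The members and lists were chosen with earlier results of these data known. Genes named are the members, Pfas, for each list the 2 called genes with the smallest p in each direction whose mean reached 1 CPM, and the 3 closest profiles to the largest rise and fall; other names are said to be chosen afterwards. 1 gene that the rule names is not reported here. Alternatives used limma 3.58.1 and DESeq2 1.42.0.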

Additional observations from a re-analysis of the deposited data

Results flagged for a closer look

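Single libraries stood out in 4 of the 34 groups of 6 values examined (11 genes and 6 ratios in Pfas CKO and in control), judged by whether the gap to the nearest value took up more of the group's range than Dixon's 95% limit. Chance flags about 1 in 20 such groups. Slc7a11 was at 2152 CPM in Pfas CKO 4, where the other 5 Pfas CKO libraries ran from 1367 to 1605 CPM. The ratio of Slc7a11 to Slc3a2 was 0.533 in Pfas CKO 4, against 0.343 to 0.396 in the other Pfas CKO libraries. Slc7a1 was at 239 CPM in Pfas CKO 2, while the remaining Pfas CKO libraries had 252 to 259 CPM. The ratio of Slc7a7 to Slc3a2 was 0.0329 in control 5, against 0.0346 to 0.0353 in the other controls.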

How the results depend on the processing

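Over 26 alternative settings, 251 values of the 10 carriers kept their direction and call, 6 lost the call and 3 reversed. The reversals were Slc7a1 at -0.10 with library totals, -0.14 on log2(TPM + 1) and -0.14 on log2(TPM + 0.1), and the lost calls concern Slc7a1, Slc3a2, Slc7a5 and Slc7a7 as given above. Scaling by library totals shifts all genes by -0.23, and the number of samples falls when libraries are summed; the cause of other changes was not tested. Among the ratios, Slc38a1 to Slc38a2 reversed to -0.052 with control 1 to 3 alone. With near-identical libraries averaged, 4 ratios lost the call (exact permutation, adjusted p = 0.3 each), where the test cannot go below p = 0.2. They were Slc7a11, Slc7a5 and Slc7a7 to Slc3a2 and Slc7a2 to Slc7a1, and each kept its direction. Genes called higher numbered 4545, but 2775 with library totals, 2279 on log2(TPM + 1), 2271 on log2(TPM + 0.1) and 2783 with near-identical libraries summed; genes called lower numbered 4785, but 7202, 7280, 7263 and 2877 in the same order. Leaving out each library gave 4388 to 4535 higher and 4575 to 5042 lower, and 6 and 4 carriers throughout. Of 416 counts of the related lists, 35 moved by over 1.5 times. With library totals, for example, 13 in place of 7 genes of the glutamine list and 15 in place of 9 amino acid response genes were lower. Same-numbered libraries deviated together little (r of -0.04 to 0.17, 2 of 6 pairs over 0.1, and 3 of 6 Pfas CKO libraries closest to their own number). No pairing by number was assumed. Most libraries lie in near-identical sets with little deviation to compare, so these values cannot exclude a pairing. With a replicate block 4529 genes were higher and 4755 lower, and the calls of the carriers did not change (6 and 4). The lowest value of a carrier was 13.1 CPM, where counting error weighs most.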
